A study of Mus musculus with 2 samples.

Results

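The chemokines Ccl2, Ccl7, Ccl8 and Ccl12 and the receptor Ccr2 were followed through the cells of 2 mouse mammary tumour libraries. These 5 genes, of 32285 in the count matrix, were taken by symbol, and all 5 were measured. The tumours were grown from 4T1, a mouse mammary carcinoma line of the triple-negative type, injected into the mammary fat pad of female BALB/c mice. In the K2-KO library the 4T1 cells carried a K2 sgRNA, that is, a guide against Kindlin-2, the integrin activator encoded by Fermt2. In the control library they were WT for Kindlin-2 and carried a control sgRNA. Both groups were grown to 150 mm3, and live cells were sorted by mCherry. The labels do not give the age of the mice, the fraction loaded, the number of tumours pooled, or whether the line was a single clone, and only the injected cells, not the host cells, carried the guide. Each group is 1 library, so no difference below has a replicate check and none was tested. Values in parentheses are exact 95% intervals, which cover counting error only and treat the RNA molecules of a cell as independent.

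The 4 ligands are CC chemokines of the monocyte chemoattractant group, named for ligands of Ccr2, the receptor by which inflammatory monocytes leave the bone marrow and enter inflamed tissue and tumours. Ccl2 (MCP-1) is the best studied of them and is made by tumour cells, fibroblasts and myeloid cells after inflammatory signals. Ccl7 (MCP-3) binds Ccr1 and Ccr3 as well, mouse Ccl8 acts on Ccr8, and Ccl12 (MCP-5) is a rodent ligand of Ccr2. Monocytes carry Ccr2 at a high level and lose it as they become macrophages.

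The ligand genes lie together on mouse chromosome 11 (mm10), all on the plus strand. Ccl2 occupies chr11:82035571-82037453, Ccl7 chr11:82045712-82047525, Ccl12 chr11:82101845-82103400 and Ccl8 chr11:82115185-82116799, a stretch of 81229 bases from the first to the last. Ccl11 lies between Ccl7 and Ccl12. Ccr2 is on chromosome 9, at chr9:124101950-124113557, on the plus strand. The transcripts of the 4 ligands shared no run of 31 bases with each other. The gene Gm17268 spans all of Ccl2 on the opposite strand.

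Of the 5 members, 3 have a promoter in the RefSeq table used (GRCm38.p6, the assembly also called mm10): Ccl8, Ccl12 and Ccr2. The promoters of Ccl8 and Ccl12 are shown because these neighbours were the ligands drawn most from one class, the C1qa-gated macrophages. Each runs from 250 bases before the start of the gene to 50 after it, on the plus strand, as chr11:82114935-82115234 for Ccl8 and chr11:82101595-82101894 for Ccl12. Capitals mark TATAAAA, the TATA box, and CTTCCTC, the reverse of the PU.1 motif GAGGAAG.
Ccl8: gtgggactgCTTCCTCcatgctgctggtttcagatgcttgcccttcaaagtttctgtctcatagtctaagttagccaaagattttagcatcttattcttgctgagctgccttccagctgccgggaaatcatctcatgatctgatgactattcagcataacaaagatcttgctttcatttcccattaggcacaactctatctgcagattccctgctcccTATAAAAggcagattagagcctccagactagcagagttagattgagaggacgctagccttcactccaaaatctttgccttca
Ccl12: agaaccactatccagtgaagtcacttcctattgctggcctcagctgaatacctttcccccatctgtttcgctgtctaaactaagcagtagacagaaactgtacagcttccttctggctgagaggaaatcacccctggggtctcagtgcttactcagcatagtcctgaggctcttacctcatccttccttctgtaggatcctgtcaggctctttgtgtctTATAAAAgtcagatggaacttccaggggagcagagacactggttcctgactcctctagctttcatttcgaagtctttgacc
TATAAAA begins 32 bases before the start of Ccl8 and 31 bases before that of Ccl12. On either strand it is in 5.48% of the 32851 promoters of the same length, and GAGGAAG, found 241 bases before the start in Ccl8 alone, is in 13.6%. Set side by side at the TATA box without gaps, the promoters match at 92 of 299 bases. The letters TGANTCA (AP-1, 7.81%) and TTCNNNGAA (GAS, 8.30%) were not in the Ccl8, Ccl12 or Ccr2 window on either strand. A match or its lack describes these letters only.

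The K2-KO library held 7250 barcodes and the control library 8038, with 180774106 and 214163620 UMIs (counted RNA molecules). After filtering and removal of called doublets, 6761 K2-KO and 7530 control cells were analysed, with medians of 15987 and 22213 UMIs. In all, 13 barcode sequences occurred in both libraries. Fermt2 stood at 17.1 CPM (UMI counts scaled to 1e6 UMIs of the class) in K2-KO Epcam-gated cells and 38.3 CPM in control ones. Its RNA was thus lower but present in the library labelled K2-KO, and 3' tags do not show whether the edited site was cut. Fermt2 was also lower in K2-KO in Col1a1-gated cells, at 297 CPM against 476 CPM in control, and in Pecam1-gated cells, at 18.9 against 110 CPM. The cause of these differences was not tested. Cells were classed by single genes, each passed with at least 2 UMIs and 100 CPM. The Epcam gate (tumour) took 1918 K2-KO and 2815 control cells, the C1qa gate (macrophage) 1083 and 1443, the Ly6c2 gate (monocyte) 377 and 127, and the Col1a1 gate (fibroblast) 100 and 110. Of Epcam-gated cells 94.2% fell in clusters that were tumour epithelial-like by their markers and 3.08% in a mammary gland-like cluster. Of Ly6c2-gated cells 79.4% were in the monocyte-like cluster, and of C1qa-gated cells 72.1% in the macrophage-like cluster, 19.5% in unnamed clusters and 6.41% in the monocyte-like one. The Ly6c2 gate also left out cells over 5000 CPM of S100a8, a neutrophil gene. The Pecam1 gate went against its intended endothelial label. Of its 746 cells only 8.18% were in the endothelial-like cluster, so it is given as a gate and not as a cell type. Shares of cells in each class depend on the sort and are not compared as tumour composition.

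Among the 5 members in the Epcam, C1qa, Ly6c2 and Col1a1 gates, Ccl2 in the tumour cells had the log2 ratio farthest from 0. Ccl2 counted 226 UMIs, or 2.37 CPM (2.07 to 2.70), in K2-KO Epcam-gated cells, against 8077 UMIs, or 66.8 CPM (65.4 to 68.3), in control ones. It was 28.2-fold lower, a log2 ratio of -4.82 (-5.01 to -4.63). Of 17265 genes with at least 20 UMIs in these cells, 2.68% were at least 2-fold lower in K2-KO and 11.1% at least 2-fold higher. Among the members, Ccl2 and Ccl7 were past 2-fold lower and Ccr2 past 2-fold higher.

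A Ccl2 UMI was found in 4.17% of K2-KO and 30.3% of control Epcam-gated cells. With each cell thinned to 2000 UMIs, so that depth is equal, the shares were 0.523% (0.251% to 0.96%) in K2-KO and 7.26% (6.33% to 8.29%) in control, leaving out 7 and 6 shallower cells. T cells (Cd3e gate), which should lack Ccl2, gave 0.881% (0.241% to 2.24%) in K2-KO and 0.318% (0.00806% to 1.76%) in control. The interval of the K2-KO tumour share lay inside that of the K2-KO T cells, and the control share lay above both T cell intervals. The T cells were shallower, so they are not an equal background for free RNA. Whether the K2-KO tumour Ccl2 was free RNA was not tested. Before thinning, K2-KO Ccl2 was at 2.37 CPM in Epcam-gated cells, 29.4 CPM in T cells, most of it from 1 cell, and 0.471 CPM in Ncr1-gated natural killer cells. Median depths were 40951 and 36911 UMIs in K2-KO and control Epcam-gated cells, and 8096.5 and 7712.5 UMIs in the T cells.

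Control Ccl2 was unevenly spread over tumour cells. In control, 207 Epcam-gated cells (7.35%) held 10 or more Ccl2 UMIs, and 71 cells held 50% of all of them. In K2-KO, 3 cells held 10 or more, and 6 cells held 50%. The highest single cell had 42 UMIs in K2-KO, or 18.6% of its class, and 155 UMIs in control, or 1.92%. Without the top cell of each library the log2 ratio was -5.08.

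Within the control tumour cells Ccl2 went with Cxcl1, a neutrophil chemokine. Of Epcam-gated cells, 34.3% passed a Cxcl1 gate in K2-KO and 56.2% in control. Cells that passed it held 2.05 CPM of Ccl2 in K2-KO (1.62 to 2.57) and 101 CPM in control (98.9 to 103). Cells that did not held 2.57 CPM in K2-KO (2.18 to 3.02) and 12.8 CPM in control (11.8 to 13.8). In control, Cxcl1-gated cells thus had 7.93-fold the Ccl2 of the others and held 92.6% of the class's Ccl2 UMIs. In K2-KO the ratio was 0.797, with an interval for its log2 of -0.75 to 0.08. By Lcn2, an iron-binding protein of inflamed epithelium, the levels were 3.29 CPM in K2-KO and 82.0 CPM in control for cells that passed, and 1.93 and 45.6 CPM for cells that did not. By Top2a, a gene of dividing cells, they were 2.54 and 37.3 CPM for cells that passed and 2.24 and 77.8 CPM for cells that did not. Ccl2 was lower in K2-KO in each of these 6 subsets.

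The same held in each of the 5 tumour epithelial-like clusters. The control level was highest in the cluster led by Mt2, Mt1, Ibsp, Csf3 and Cxcl1, where K2-KO had no UMI in 32 cells and control had 179 CPM in 783 cells. Against a floor of 3 counts in K2-KO, that is at least 80.7-fold lower. In the cluster led by Slpi and Msmp, Ccl2 was at 8.16 CPM in K2-KO and 67.1 CPM in control. In the dividing cluster led by Hist1h1b and Cenpf it was at 3.30 CPM in K2-KO and 40.7 CPM in control. The clusters led by Sema3e and by Ghr had 2.68 and 0.968 CPM in K2-KO, against 32.6 and 28.3 CPM in control. Clusters were made from 2000 variable genes over both libraries together, so cluster sizes are not compared.

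**Figure D1:**
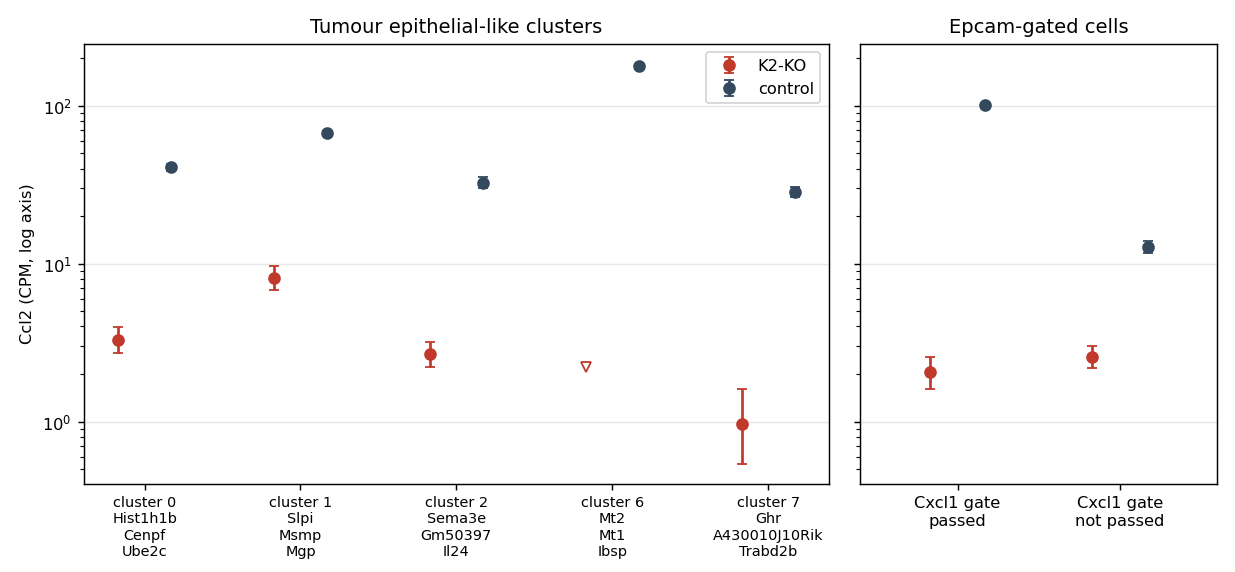
Ccl2 (CPM, log axis) in the 5 tumour epithelial-like clusters, each named by its 3 leading genes (left), and in Epcam-gated cells that passed or did not pass a Cxcl1 gate (right). Points are class sums of 1 library with exact Poisson 95% intervals, and the open triangle is the floor of 3 counts where K2-KO had none. Every K2-KO value lies below its control, and the control values with and without Cxcl1 are 101 and 12.8 CPM.

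Ccl7 was low in tumour cells of both libraries. It stood at 0.713 CPM (0.554 to 0.904) in K2-KO Epcam-gated cells and 3.43 CPM (3.11 to 3.78) in control ones, a log2 ratio of -2.27 (-2.66 to -1.89). Ccl7 was at 0.853 CPM (0.233 to 2.19) in K2-KO T cells, which the K2-KO tumour value does not exceed, and at 0 UMIs in control T cells. The T cells were shallower, so they are not an equal background for free RNA. The gap lay in Cxcl1-gated cells, at 0.729 CPM in K2-KO and 5.16 CPM in control, while the others had 0.703 and 0.723 CPM. By cluster the direction was not shared. In the dividing cluster Ccl7 was higher in K2-KO, at 3.51 CPM against 0.886 CPM in control (log2 ratio 1.99, 1.39 to 2.62), with 70.2% of the K2-KO UMIs in 1 cell. In the cluster led by Sema3e its log2 ratio spanned 0, at -0.37 (-0.94 to 0.21). The gate value also changed with the threshold: with 3 UMIs and 200 CPM required, the log2 ratio was -0.76. Ccl8 was at 2.97 CPM in K2-KO Epcam-gated cells, 48.8% of it in 1 cell, and 1.79 CPM in control ones, below the 5.33 and 8.24 CPM of the T cells. Ccl12 was at 0.766 CPM in K2-KO and 0.538 CPM in control, both inside the intervals of the T cells. Ccr2 was at 2.13 CPM in K2-KO and 0.918 CPM in control. Leukocyte markers moved with Ccr2 in these cells. Ptprc, the pan-leukocyte gene CD45, was at 12.1 CPM in K2-KO and 5.72 CPM in control, and 5 T cell markers summed to 9.45 CPM in K2-KO and 3.91 CPM in control. The 7 macrophage markers summed to 51.2 CPM in K2-KO and 34.9 CPM in control, with none of the markers at 0. Their part in the Ccr2 value was not tested.

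Markers of other cells and another gene also differed in the Epcam-gated cells, not all in the direction of Ccl2. The summed level of 5 mammary gland markers (Wfdc18, Krt5, Krt15, Ltf, Csn3), none of them at 0, was 188 CPM in K2-KO Epcam-gated cells and 28.1 CPM in control ones. The sum of 4 pericyte markers was 21.5 CPM in K2-KO and 3.13 CPM in control, and that of 5 neutrophil markers 11.4 and 28.1 CPM. The 6 monocyte markers, Ccr2 among them, summed to 27.0 and 68.8 CPM, with no marker of these lists at 0. In control most of the monocyte sum was F13a1, at 62.2 CPM against 9.83 CPM in K2-KO. The other monocyte markers did not share that fall. Plac8 (11.6 CPM in K2-KO and 3.90 CPM in control), Vcan and Ccr2 were higher in K2-KO, and Ly6c2 was at 1.09 and 1.20 CPM. Chil3 counted only 9 UMIs in K2-KO and 3 in control, with a log2 interval of -0.07 to 4.45 that spans 0. The part of these markers in the tumour values was not tested. With Wfdc18- or Krt5-gated cells left out, the Ccl2 log2 ratio was -5.16 and that of Ccl7 -2.36. Gm17268, which spans Ccl2 on the other strand, was at 0.199 CPM in K2-KO and 10.4 CPM in control, a log2 ratio of -5.71 (-6.45 to -5.06). Whether the counting used strand is not given in the sources used here, so reads of Ccl2 and Gm17268 cannot be told apart, although their annotated exons share no run of 31 bases. Gm17268 had 8.41% as many UMIs as Ccl2 in K2-KO tumour cells and 15.6% as many in control.

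In macrophages all 5 members were higher in K2-KO, and Ccl8 was the only one past 2-fold. Ccl8 stood at 1008 CPM (993 to 1022) in K2-KO C1qa-gated cells and 458 CPM (450 to 466) in control ones, 2.20-fold higher, with a log2 ratio of 1.14 (1.10 to 1.17). Of 14125 genes with at least 20 UMIs in these cells, 5.97% were at least 2-fold higher in K2-KO and 0.892% at least 2-fold lower. Ccl7 was at 217 CPM (210 to 223) in K2-KO and 138 CPM (133 to 142) in control, a log2 ratio of 0.66 (0.59 to 0.72). Ccl12 was at 321 CPM (313 to 329) in K2-KO and 245 CPM (239 to 251) in control, a log2 ratio of 0.39 (0.34 to 0.44). Ccl2 was at 215 CPM (208 to 222) in K2-KO and 169 CPM (164 to 174) in control, a log2 ratio of 0.35 (0.29 to 0.41). Of these 3 ligands Ccl7 differed most, at 1.58-fold, and the median ratio of all genes tested in the class was 0.03 on the log2 scale. Markers of some other cells moved with these values, and those of others went the other way. In K2-KO and control C1qa-gated cells the monocyte sum, which includes Ccr2, was 665 and 471 CPM, the T cell sum 35.1 and 10.5 CPM, the sum of 4 NK cell markers 13.8 and 4.84 CPM, and that of 5 conventional dendritic markers 10.4 and 3.01 CPM. None of these markers was at 0 in either library. The sum of 5 neutrophil markers went the other way, at 95.7 CPM in K2-KO and 144 CPM in control, with none at 0. That of 5 endothelial markers, 1 of them at 0 in each library, was 103 and 119 CPM. The part of all these markers in the ligand values was not tested.

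After thinning to 2000 UMIs, Ccl8 was found in 28.5% (25.6% to 31.5%) of K2-KO and 17.9% (15.9% to 20.1%) of control C1qa-gated cells. Ccl7 was found in 22.6% of K2-KO and 13.7% of control cells, Ccl2 in 22.2% and 17.4%, and Ccl12 in 28.0% and 23.2%. The thinned share of T cells with a UMI was at most 1.10% in K2-KO and 0.955% in control for any ligand. The intervals of the K2-KO and control shares did not overlap for Ccl8, Ccl7 or Ccl2, and did for Ccl12. For Ccl2 they nearly met, at 19.6% to 25.0% in K2-KO and 15.4% to 19.5% in control. These intervals treat cells of 1 library as independent. The same comparison was not made over all genes, so it does not set the members apart from other genes. Thinning left out 146 K2-KO and 82 control cells.

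Macrophages that carried Folr2, a folate receptor of resident-type tissue macrophages, held more Ccl8 than the others in both libraries. In Folr2-gated cells (112 K2-KO, 100 control) Ccl8 was at 3841 CPM in K2-KO and 3473 CPM in control. In the other C1qa-gated cells (971 and 1343) it was at 614 CPM in K2-KO and 248 CPM in control, a log2 ratio of 1.31 (1.26 to 1.35). Ccl2 and Ccl7 went the other way in the Folr2-gated cells, with Ccl2 at 414 CPM in K2-KO and 501 CPM in control, and Ccl7 at 471 CPM in K2-KO and 610 CPM in control. Outside them Ccl2 was at 187 CPM in K2-KO and 146 CPM in control, and Ccl7 at 181 and 105 CPM. The unnamed cluster led by Ccl8, Ctsk, Cd163 and Folr2 had medians of 2007 and 2075 UMIs per cell and held 26.8% of all Ccl8 UMIs in K2-KO and 21.5% in control.

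The excess of Ccl2 and Ccl7 was larger in C1qa-gated cells without Arg1, the arginase of alternatively activated macrophages. There Ccl2 was at 278 CPM in K2-KO and 137 CPM in control, with Ccl7 at 259 and 99.0 CPM. In Arg1-gated cells Ccl2 was at 197 CPM in K2-KO and 173 CPM in control, with Ccl7 at 204 and 142 CPM. Arg1-gated cells made up 66.1% of the class in K2-KO and 82.8% in control. Ccl12 divided by Cxcl9, an interferon-gamma-induced chemokine. In Cxcl9-gated cells Ccl12 was at 407 CPM in K2-KO and 194 CPM in control, and in the others at 249 CPM in K2-KO and 263 CPM in control. Cxcl9-gated cells made up 39.4% of the class in K2-KO and 23.4% in control. The mix of these subsets differed between the libraries, and its part in the class values was not tested.

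The ligands were often found in the same macrophages. At 2000 UMIs per cell, Ccl7 was found in 55.3% of K2-KO C1qa-gated cells with a Ccl2 UMI and 13.3% of those without. In control the shares were 43.5% and 7.38%. Ccl12 was found in 49.0% of K2-KO cells with a Ccl2 UMI and 21.9% of those without, and in 47.7% and 18.1% in control. For Ccl8 the shares were 39.4% and 25.4% in K2-KO, and 27.0% and 16.0% in control. The intervals for cells with and without Ccl2 did not overlap in any of these 6 pairs. Cells of the same library were treated as independent in these intervals. Co-detection with Ccl2 was not computed for genes other than the ligands, so these shares do not set the ligands apart from other genes of the class.

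In monocytes Ccl2 and Ccl7 were higher in K2-KO, Ccl12 was lower, and the interval for Ccr2 spanned no difference. Ccl2 was at 454 CPM (433 to 475) in K2-KO Ly6c2-gated cells and 253 CPM (224 to 284) in control ones, a log2 ratio of 0.84 (0.66 to 1.03). Ccl7 was at 113 CPM (102 to 123) in K2-KO and 65.2 CPM (51.0 to 82.3) in control. No member was past 2-fold, and 6.06% of 10016 genes tested in the class were at least 2-fold higher in K2-KO and 1.99% at least 2-fold lower. The share of cells with a Ccl2 UMI at equal depth did not part, at 26.5% (22.1% to 31.3%) in K2-KO and 27.0% (19.5% to 35.6%) in control. Mast or basophil-like cells, which held 492 CPM of Ccl2 in K2-KO and 500 CPM in control, made up 15 of the K2-KO and 6 of the control Ly6c2-gated cells and held none of their Ccl2 UMIs. In the whole monocyte-like cluster Ccl2 was at 470 CPM in K2-KO and 231 CPM in control.

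Ccl12 was at 80.6 CPM (72.0 to 89.9) in K2-KO Ly6c2-gated cells and 156 CPM (134 to 182) in control ones, a log2 ratio of -0.96 (-1.23 to -0.68). The control value came from 170 UMIs, of which 1 cell held 22.4%. The sum of 7 macrophage markers moved with it, at 2442 CPM in K2-KO and 3524 CPM in control with none at 0, and Apoe, one of them, was at 1686 CPM in K2-KO and 2899 CPM in control. The T cell sum was 114 CPM in K2-KO and 219 CPM in control, and that of 5 mast or basophil markers 66.0 and 149 CPM, with 1 and 2 of the 5 at 0. The part of these markers in the Ccl12 value was not tested. In the monocyte-like cluster the levels were 102 CPM in K2-KO and 116 CPM in control, a log2 ratio of -0.19. Ccl8 was at 34.7 CPM in K2-KO and 27.6 CPM in control, with 41.3% and 43.3% of its UMIs in 1 cell.

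Ccr2 was highest in Ly6c2-gated cells of both libraries. It stood at 782 CPM (755 to 810) in K2-KO and 818 CPM (765 to 873) in control, a log2 ratio of -0.06 (-0.17 to 0.04) that spans 0. That call depended on the cells taken: the ratio was -0.14 (-0.25 to -0.03) with doublets kept and 0.14 (0.07 to 0.21) in the monocyte-like cluster. At equal depth it was found in 65.3% (60.2% to 70.2%) of K2-KO and 61.1% (52.0% to 69.7%) of control cells. In cells that passed both the Ly6c2 and the C1qa gate (90 K2-KO, 24 control) Ccr2 was at 704 CPM (658 to 752) in K2-KO and 637 CPM (546 to 739) in control. In cells with C1qa alone it was at 323 CPM in K2-KO and 273 CPM in control. Ccr2 thus stood lowest in cells with C1qa alone in both libraries. Ly6c2 was part of how these cells were chosen, and Plac8, another monocyte gene, ran the same way, with 2180, 1442 and 216 CPM in K2-KO and 2524, 1194 and 101 CPM in control.

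No ligand shared that order in both libraries. Ccl2 ran the same way in K2-KO, at 454, 375 and 216 CPM, but stood at 253, 109 and 169 CPM in control. Ccl12 was lowest in cells with Ly6c2 alone and stood at 211 CPM in K2-KO and 218 CPM in control in cells with both. Ccl2 was highest with Ly6c2 alone in both libraries, and in cells with both it was at 375 CPM (342 to 410) in K2-KO and 109 CPM (73.7 to 156) in control. Ccl7 in those cells was at 379 CPM (346 to 415) in K2-KO and 61.9 CPM (36.0 to 99.1) in control. Ccl8 was at 424 CPM in K2-KO, with 531 UMIs in 90 cells, and 21.8 CPM in control, with 6 UMIs in 24 cells.

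**Figure D2:**
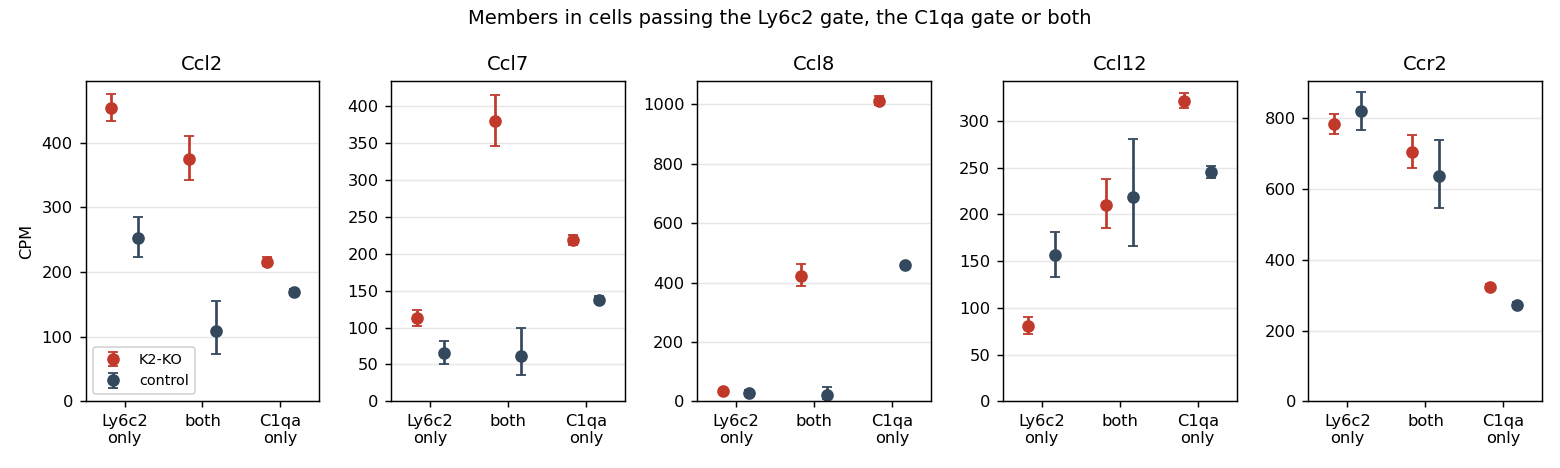
Each member (CPM, linear axis) in cells that passed the Ly6c2 gate alone, both gates, or the C1qa gate alone, in K2-KO and control, with exact Poisson 95% intervals on sums of 1 library. Ccr2 is lowest in cells with C1qa alone, at 323 CPM in K2-KO and 273 CPM in control. Ccl7 in cells with both gates parts at 379 and 61.9 CPM, with a UMI in 32.2% and 25.0% of those cells.

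In C1qa-gated cells Ccr2 was at 322 CPM (314 to 330) in K2-KO and 273 CPM (266 to 279) in control, a log2 ratio of 0.24 (0.19 to 0.29). The share with a Ccr2 UMI was 66.2% in K2-KO and 67.4% in control before thinning, and 40.9% (37.7% to 44.1%) and 32.9% (30.4% to 35.5%) at equal depth. Natural killer cells (Ncr1 gate) had 264 CPM in K2-KO and 204 CPM in control, T cells 103 and 125 CPM, and Flt3- or Siglech-gated dendritic cells 74.2 and 78.1 CPM. The log2 ratio was 0.37 (0.08 to 0.66) in natural killer cells, -0.29 (-0.48 to -0.09) in T cells and -0.07 (-0.46 to 0.33) in the dendritic cells. Fibroblasts had 6.62 CPM in K2-KO and 3.51 CPM in control. In both libraries the first 3 classes from high to low were Ly6c2, C1qa and Ncr1, and tumour cells were below fibroblasts. In control the intervals of Csf3r-gated and dendritic cells overlapped, so their order is not fixed. Csf3r-gated cells, at 155 CPM in K2-KO and 91.5 CPM in control, had a UMI in only 17 of 234 and 14 of 408 cells. Of these gated cells 95.3% were in the neutrophil-like cluster and 4.05% in the monocyte-like one. Ccr2 was at 12.6 CPM in K2-KO and 2.00 CPM in control in the neutrophil-like cluster, so the gate value is not given as a neutrophil level. In the monocyte-like cluster it was at 814 and 741 CPM. The part of the monocyte-like cells in the gate value was not tested.

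More cells carried Ccr2 in the K2-KO library. A Ccr2 UMI was found in 2151 of 6761 K2-KO cells (31.8%, 30.7% to 32.9%) and 1672 of 7530 control cells (22.2%, 21.3% to 23.2%). At equal depth the shares were 19.3% in K2-KO and 11.6% in control. C1qa-gated cells were 33.3% of these cells in K2-KO and 58.1% in control. Ly6c2-gated cells were 14.9% in K2-KO and 6.34% in control, natural killer cells 7.39% and 2.63%, and Pecam1-gated cells 10.6% and 6.16%. T cells made up 6.42% in K2-KO and 6.58% in control, which do not part. These shares follow the number of cells of each class in the library, which the sort can set.

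**Figure D3:**
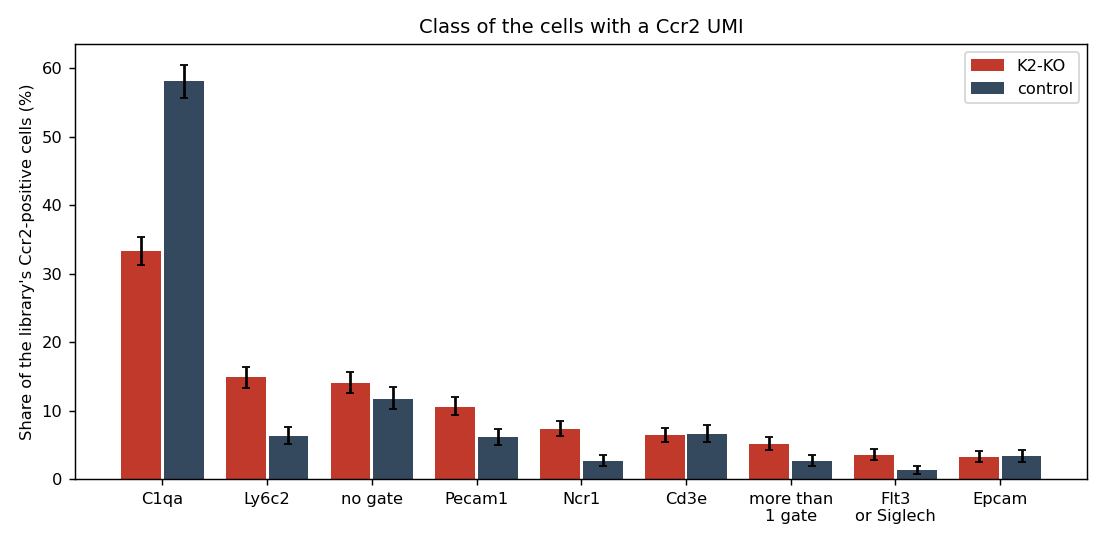
Cell class of the cells with at least 1 Ccr2 UMI, as percent of all such cells in the library (2151 K2-KO, 1672 control), with exact binomial 95% intervals. C1qa-gated cells make up 33.3% in K2-KO and 58.1% in control, and Ly6c2-gated cells 14.9% and 6.34%.

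Fibroblasts held the highest Ccl2 level among the classes of at least 100 cells. It was at 824 CPM (797 to 852) in K2-KO Col1a1-gated cells and 514 CPM (489 to 540) in control ones, a log2 ratio of 0.68 (0.60 to 0.77). Ccl7 did not part in this gate, at 437 CPM (417 to 458) in K2-KO and 422 CPM (400 to 446) in control. Ccl8 was at 414 CPM (395 to 435) in K2-KO and 154 CPM (140 to 168) in control, 2.70-fold higher, with 19.7% of K2-KO and 7.69% of control UMIs in 1 cell. Ccl12 counted 61 UMIs in K2-KO, 85.2% of them in 1 cell, and 3 in control, a log2 ratio of 3.96 (2.35 to 6.28) that rests on that cell. Ccl8 and Ccl12 were the members past 2-fold, both higher, where 4.82% of 11650 genes were at least 2-fold higher and 3.13% at least 2-fold lower. At equal depth a Ccl2 UMI was found in 43.8% (33.6% to 54.2%) of K2-KO and 32.1% (23.3% to 41.8%) of control fibroblasts, with overlapping intervals. Tumour epithelial markers summed to 198 CPM in K2-KO fibroblasts, with 0 of 7 at 0, and 48.9 CPM in control ones, with 1 of 7 at 0, and their part in these values was not tested. Of Col1a1-gated cells 88.6% were in the fibroblast-like cluster and 9.05% in the pericyte-like one. In the fibroblast-like cluster the log2 ratio was 0.57 for Ccl2 and 0.11 (0.01 to 0.22) for Ccl7. The pericyte-like cluster held 9 K2-KO and 17 control cells. Its Ccl2 was at 727 CPM in K2-KO and 148 CPM in control, and its Ccl7 at 155 and 328 CPM. The part of these cells in the gate values was not tested.

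Endothelial cells were few. Under a Cdh5 gate, added after the Pecam1 gate was seen to hold other cells, Ccl2 was at 62.2 CPM (47.6 to 79.9) in 59 K2-KO cells and 54.6 CPM (42.7 to 68.8) in 51 control cells, with 44.3% and 37.5% of the UMIs in 1 cell. This gate also held other cells, with Ccr2 at 115 CPM in K2-KO and 18.2 CPM in control. In its cells of the Pecam1 class (19 K2-KO, 37 control) Ccl2 was at 101 and 57.9 CPM, a log2 ratio of 0.80 (0.14 to 1.43). There 1 cell held 74.2% of the K2-KO and 40.3% of the control UMIs. In the endothelial-like cluster Ccl2 was at 75.4 CPM in K2-KO and 56.7 CPM in control. Mast cells (Cpa3 gate, 16 K2-KO and 17 control) held Ccl2 at 577 CPM (448 to 731) in K2-KO and 492 CPM (377 to 631) in control. Natural killer cells held 1 Ccl2 UMI in each library. In T cells Ccl2 was at 29.4 CPM in K2-KO and 3.80 CPM in control, and 1 K2-KO cell held 61.6% of those UMIs.

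**Figure D4:**
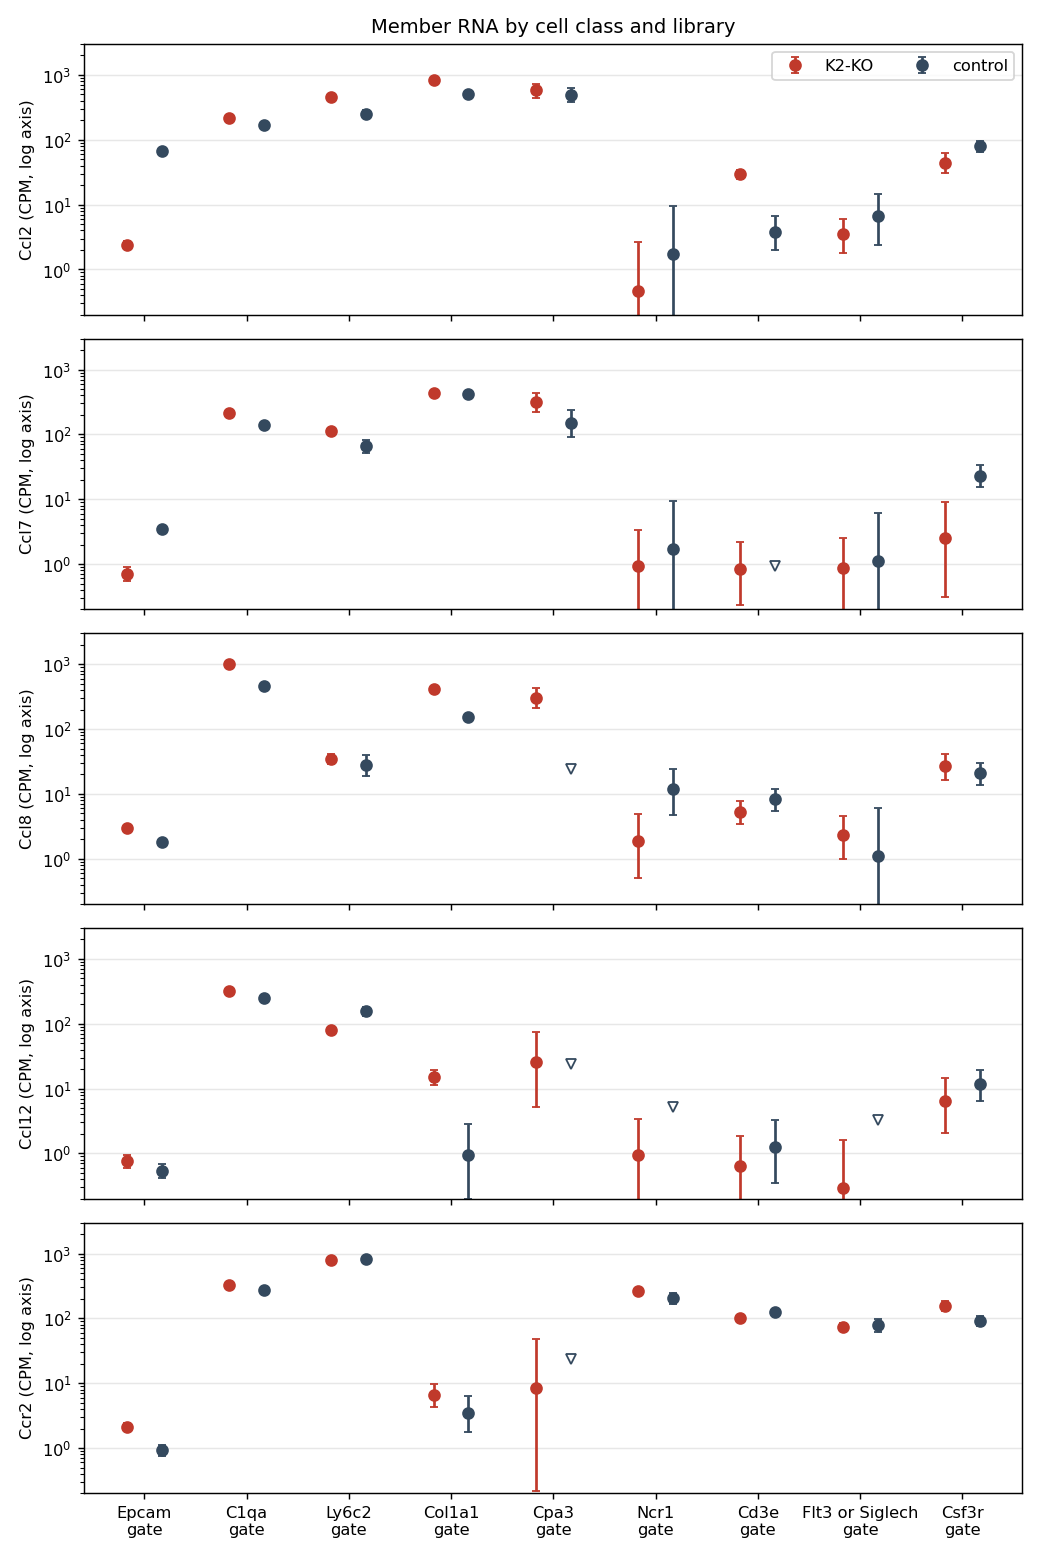
Level of each member (CPM, log axis) in 9 cell classes, K2-KO left of control, with exact Poisson 95% intervals on the class sum of 1 library. Open triangles mark the floor of 3 counts where a class had no UMI. Ccl2 parts most in the Epcam gate, at 2.37 CPM in K2-KO and 66.8 CPM in control, and Ccr2 is highest in the Ly6c2 gate, at 782 and 818 CPM.

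The source of each ligand followed from these levels and from how many cells of each class were in the library. Of all Ccl2 UMIs, Epcam-gated cells held 1.94% (1.70% to 2.21%) in K2-KO and 44.0% (43.3% to 44.7%) in control. C1qa-gated cells held 34.3% in K2-KO and 24.2% in control, Col1a1-gated cells 28.8% and 8.77%, and Ly6c2-gated cells 15.5% and 1.50%. Cells that passed no gate held 8.96% in K2-KO and 18.2% in control, and tumour epithelial-like clusters, which take in many of them, held 3.35% and 61.5%. Over all cells Ccl2 was at 68.2 CPM in K2-KO and 90.4 CPM in control, a log2 ratio of -0.41. Besides the tumour cells, Ccl2 was lower in K2-KO in cells of no gate, at 37.3 CPM against 83.2 CPM in control. It was also lower in Csf3r-gated cells, at 44.5 CPM against 79.8 CPM. In the neutrophil-like cluster Ccl2 counted 0 UMIs in K2-KO and 26 UMIs, or 17.3 CPM, in control. The whole-library value also depends on the number of cells in each class.

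Ccl8 and Ccl12 came mainly from macrophages in both libraries. C1qa-gated cells held 84.1% of Ccl8 in K2-KO and 89.5% in control, and 85.1% and 93.4% of Ccl12. Ccl7 came from C1qa-gated cells at 51.8% in K2-KO and 59.6% in control, and from Col1a1-gated cells at 22.9% and 21.8%, although only 1.48% of K2-KO and 1.46% of control cells were of that class. Tumour cells gave 0.876% of Ccl7 in K2-KO and 6.85% in control. Over all cells Ccl7 was at 45.4 CPM in K2-KO and 29.8 CPM in control, Ccl8 at 130 and 66.2 CPM, Ccl12 at 40.9 and 34.0 CPM, and Ccr2 at 85.6 and 52.1 CPM. Of Ccr2 UMIs, C1qa-gated cells held 40.9% in K2-KO and 67.7% in control, and Ly6c2-gated cells 21.2% and 8.42%.

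**Figure D5:**
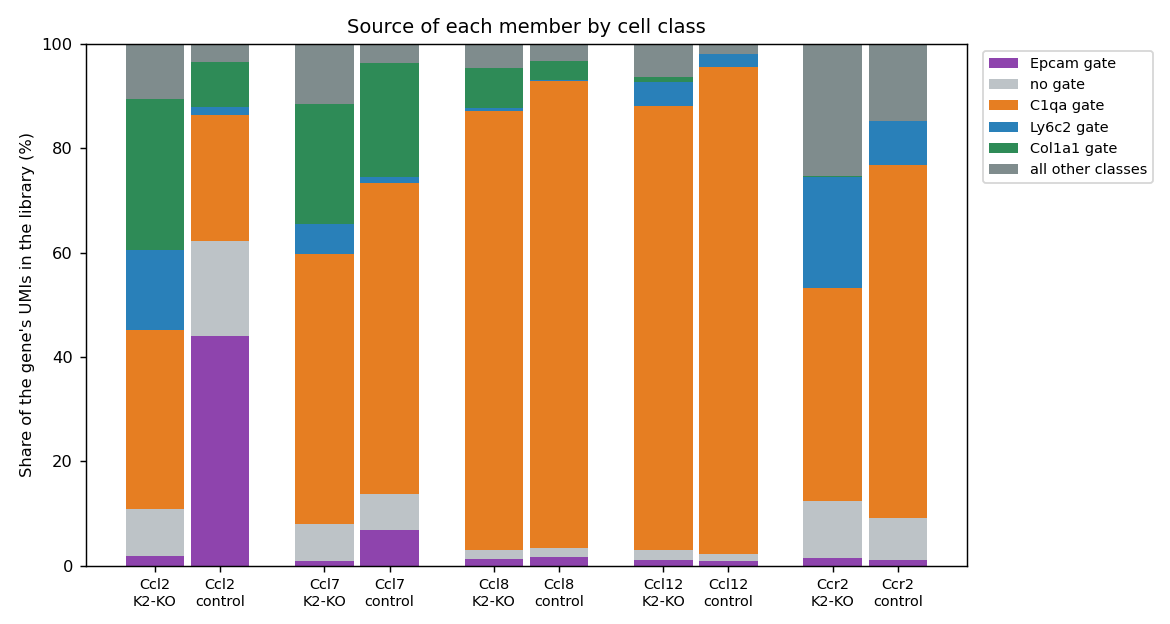
Share of each member's UMIs by cell class, in percent of all UMIs of that gene in the library, K2-KO left of control. The Epcam part of the Ccl2 bar is 1.94% in K2-KO and 44.0% in control, and the C1qa part makes up most of the Ccl8 and Ccl12 bars in both.

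Other genes of the pathway were read from lists, as counts of genes at least 2-fold apart with at least 20 UMIs. Of 26 inducers and regulators of Ccl2 RNA, all measured in tumour cells, 3 were at least 2-fold lower in K2-KO and 0 higher, with a median log2 ratio of -0.25 beside 0.12 over all genes. Over all genes tested in tumour cells, 2.68% were lower and 11.1% higher. They were Il1a (interleukin-1 alpha), at 10.1 CPM in K2-KO and 46.8 CPM in control, Tnfaip3, an NF-kappaB target and brake, at 79.2 and 165 CPM, and Il6, at 0.22 and 0.686 CPM. Nfkbia, the inhibitor of NF-kappaB, was just inside, at 243 CPM in K2-KO and 479 CPM in control. Of the same list 0 genes passed 2-fold in C1qa-gated or Ly6c2-gated cells. In fibroblasts 1 was higher (Il1b, 21.8 CPM in K2-KO and 9.26 CPM in control) and 2 lower (Il1a, 0.491 and 11.2 CPM, and Tnf, 1.72 and 6.07 CPM), where 4.82% of all genes were higher and 3.13% lower.

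Of 21 other ligands, receptors and adhesion genes of monocyte traffic, 19 were measured in tumour cells, of which 2 were higher and 1 lower, near the 11.1% and 2.68% of all genes. These were Cxcl12 (0.241 CPM in K2-KO and 0.091 CPM in control), Itga4 (2.83 and 1.12 CPM) and, lower, Itgb2, the beta chain of leukocyte integrins, at 8.51 CPM in K2-KO and 18.2 CPM in control. Csf1, the macrophage growth factor, was at 57.8 CPM in K2-KO tumour cells and 78.3 CPM in control ones. In C1qa-gated cells 1 of 17 was higher, Ccl5, at 267 CPM in K2-KO and 127 CPM in control, where 5.97% of all genes were higher. T and NK cells also make Ccl5, and their marker sums, given above, were higher in the same cells, with their part not tested. In Ly6c2-gated cells 1 of 16 was higher, Vcam1, at 24.2 CPM in K2-KO and 2.76 CPM in control, where 6.06% of all genes were higher. In fibroblasts 3 of 14 were higher and 3 lower, beside 4.82% and 3.13% of all genes. The higher ones were Ccl9, Ccl5 and Cxcl12, and Cxcl12, which holds Cxcr4-bearing cells in tissue, was at 488 CPM in K2-KO and 233 CPM in control. The lower ones included Itga4, at 3.19 CPM in K2-KO and 8.94 CPM in control, and Ccl4, at 4.91 CPM in K2-KO and 10.9 CPM in control.

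Of 12 monocyte state genes, all measured in C1qa-gated cells, 4 were higher in K2-KO and 0 lower, beside 5.97% and 0.892% of all genes. They included Plac8 (222 CPM in K2-KO and 101 CPM in control), Vcan (14.1 and 5.41 CPM) and Ly6c2 (10.0 and 1.45 CPM). Cells that passed both the C1qa and the Ly6c2 gate were classed apart, so the Ly6c2 value is what that cut left in the class. In Ly6c2-gated cells 1 of 12 was higher (Ace, 14.9 CPM in K2-KO and 6.43 CPM in control) and 1 lower (Fn1, 584 CPM in K2-KO and 1213 CPM in control), beside 6.06% and 1.99% of all genes. In tumour cells F13a1, a coagulation factor subunit common in monocytes, was at 9.83 CPM in K2-KO and 62.2 CPM in control. Plac8 and Vcan were higher there, at 11.6 and 2.30 CPM in K2-KO against 3.90 and 0.571 CPM in control.

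The genes whose level ran most like each member were found over 22 class and library groups of at least 50 cells, as Pearson's r of log2(CPM + 1) among 14913 genes. The groups share libraries and some share cell lineage, so r is a description. Gm17268 was most like Ccl2 (r = 0.92), followed by Ccl7 (0.89), Egr2, Mmp19 and C3. For Ccl7 they were Gm31522 (0.94), a lincRNA gene just before Ccl2 on chromosome 11, then Colec12, P4hb, C1ra and Ccl2. Ccl8 was most like Ctsf (0.89), Cped1, Egr2, Scamp5 and Ccl7, and Ccl12 most like Siglec1 (0.95), Creg2, Cebpa, Apoe and Gas2l3. Genes like Ccr2 included Otulinl (0.96), AI504432, Tex14 and Pycard. Between Ccr2 and the ligands r was near 0 for Ccl2, 0.08 for Ccl7, 0.19 for Ccl8 and 0.53 for Ccl12.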

How the data were processed

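Live cells of 2 tumour libraries, 1 K2-KO and 1 control, were profiled by 10x 3' single-cell RNA sequencing. The authors deposited raw UMI counts per gene and barcode. The submitters' processing notes name Cell Ranger 2.1.1 and mm10, while the matrix header names 6.0.1, and the strand setting of counting is not given in the sources used here. Barcodes were assigned to libraries by their suffix, the library number. Cells with at least 500 UMIs, 200 genes and at most 20% mitochondrial UMIs were kept, and doublets called by Scrublet (2.89% in K2-KO, 2.80% in control) were left out. Scanpy 1.11.5 was used for Leiden clusters (2000 variable genes, 30 components, 15 neighbours, resolution 1), which were named from marker lists with a rule set after the clusters were seen.

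Counts were summed per library and class as CPM. Levels have exact Poisson 95% intervals, shares Clopper-Pearson intervals, and log2 ratios conditional binomial intervals, and floors are 3 counts. These cover counting error only and are too narrow where 1 cell holds many UMIs. With 1 library per group no test was made. A gene was counted as apart at 2-fold with at least 20 UMIs. TMM scaling was done with edgeR 4.0.16 in R 4.3.3. The interval code was tested on simulated data. The 5 members were named in every class, the genes of 3 pathway lists were counted and those with extreme ratios named, and likeness named up to 5 genes per member; a few genes that these rules pick are not reported here. Members and lists were chosen with earlier results of these data known. Positions are from GENCODE vM21 and promoters from RefSeq.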

Additional observations from a re-analysis of the deposited data

Results flagged for a closer look

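For 3 ligands the log2 ratio of K2-KO over control had opposite signs in different cell classes. The differences between classes were not tested, since each group is 1 library. The Ccl2 ratio in Epcam-gated tumour cells minus that in C1qa-gated macrophages was -5.165, minus that in Ly6c2-gated monocytes -5.66, and minus that in Col1a1-gated fibroblasts -5.50. For Ccl7 the tumour ratio minus that in macrophages was -2.92 and minus that in monocytes -3.05. For Ccl12 the ratio in tumour cells minus that in monocytes was 1.47, in macrophages minus monocytes 1.34, and in monocytes minus fibroblasts -4.92. The Ccl12 ratio in tumour cells rests on 73 K2-KO and 65 control UMIs at the level of T cells, and that in fibroblasts on 1 K2-KO cell with 85.2% of the UMIs.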

How the results depend on the processing

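No paired analysis was possible because each group is 1 library. Of 85 recomputed ratios and shares, 54 moved by less than the counting interval, 31 by more, and 0 values whose interval left out 0 changed sign. The cause of these shifts was not tested. For Ccl2 in Epcam-gated cells (-4.82) the log2 ratio was -4.42 with a looser gate, -4.47 with a stricter gate, -4.41 by Leiden clusters, -5.16 without mammary gland cells and -5.08 without the top cell. For Ccl7 there (-2.27) it was -0.76 with the stricter gate and -1.12 by clusters. In C1qa-gated cells, the mean CPM of single cells gave 0.66 for Ccl2, 0.87 for Ccl7, 1.32 for Ccl8, 0.45 for Ccl12 and 0.31 for Ccr2. With the Ccl8-led cluster added, chosen after seeing the data, the ratios were 0.41 for Ccl2, 1.20 for Ccl8 and 0.46 for Ccl12. TMM scaling gave 1.09 for Ccl8, 0.34 for Ccl12 and 0.19 for Ccr2. Ccl8 was at 1.10 with doublets kept, 1.19 with the stricter gate and 1.09 by clusters, and Ccr2 at 0.30 with doublets kept. Ccr2 in Ly6c2-gated cells, at -0.06 with an interval that spans 0, was at 0.14 (0.07 to 0.21) by clusters and -0.14 (-0.25 to -0.03) with doublets kept, so the interval left out 0 on either side. The tumour share of Ccl2 in K2-KO was 2.86% with the looser gate, 3.35% by clusters, 1.49% without gland cells and 1.58% without the top cell. In control it was 42.5% with doublets kept, 49.9% with the looser gate, 33.6% with the stricter gate and 61.5% by clusters. TMM shifted all tumour ratios by 0.14 on the log2 scale.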
